A study of Mus musculus with 16 samples.

Results

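The microRNA miR-126 was followed through both of its arms, mmu-miR-126-3p and mmu-miR-126-5p, on Agilent arrays hybridized with total RNA from sciatic nerves of mice. Both were found by their exact names among the 650 miRNA names of the array, and each is carried by 2 probes. Nerves came from Dicer fl/fl Dhh-Cre+ mutants, in which both Dicer1 alleles are floxed, and from Dicer wt/fl Dhh-Cre+ controls, in which 1 allele is floxed. Both genotypes carry the Dhh-Cre transgene, which is active in cells of the Schwann cell lineage, so the controls also have recombination at 1 allele. Each genotype was studied at embryonic day 17 (E17) and at postnatal day 4 (p4), with 4 animals per group, each on its own array, which gave 16 arrays. The whole nerve was extracted, so the RNA also comes from axons, vessels, blood, connective tissue and other cells outside the Schwann cell lineage.

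miR-126 is best known from endothelial cells, the lining of blood and lymph vessels, where its precursor lies in an intron of Egfl7, a gene for a secreted protein of the vessel wall. The hairpin is cut by Drosha in the nucleus and by Dicer in the cytoplasm into the 3p and the 5p arm. The 3p arm is known to repress Spred1 and Pik3r2, inhibitors of the signaling by vascular endothelial growth factor, and Vcam1, an adhesion molecule for leukocytes. The 5p arm is known to repress Dlk1 in endothelial cells.

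The sequences are shown because the seed, bases 2 to 8 of the mature strand, is what pairs with targets, and because the hairpin holds both arms. They were taken from RefSeq on build GRCm38.p6, where the current name is miR-126a. The mature 3p strand of 22 bases lies at chr2:26591402-26591423 on the plus strand, and its seed is in capitals:
mmu-miR-126a-3p: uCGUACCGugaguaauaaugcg
The hairpin of 73 bases, from the gene Mir126a at chr2:26591357-26591429 on the plus strand, lies within the span of Egfl7. The 3p arm, positions 46 to 67 counted from the 5′ end of the hairpin, is in capitals:
Mir126a hairpin: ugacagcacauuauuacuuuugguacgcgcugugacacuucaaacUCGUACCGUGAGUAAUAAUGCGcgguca
Of the 1738 mature entries for mouse in the RefSeq table, 0 others hold the same seed. The most similar other mature sequence is that of miR-126b-3p, with 17 identical bases in an alignment without gaps.

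Some features of the arrays bear on the values that follow. Every E17 array lay on slide 1 and every p4 array on slide 2, so the effects of age and of slide cannot be told apart; the genotypes of an age were on the same slide. At p4 the summed signal of all miRNAs was lower in mutants by 0.96 on the log2 scale (exact two-sided permutation p = 0.0286, the smallest that 4 against 4 arrays can give). At E17 the mutants were lower by 0.17 (exact permutation p = 0.400). Arrays detected between 197 and 260 miRNAs, and arrays of a group correlated with r of 0.962 to 0.998. Dicer itself was not measured by these arrays. miR-338-3p, miR-204 and miR-138, which are known from Schwann cells, together held 3.38 to 4.58% of the summed signal in p4 controls and 0.408 to 0.626% in p4 mutants. In E17 controls their share was 1.40 to 2.21% and in E17 mutants 1.20 to 1.34%. All of them were picked out by the study from these same samples, so they are no independent check of the genotype.

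Only the 3p arm gave a clear signal. miR-126-3p was detected by the scanner software on 16 of 16 arrays, and 320 of its 320 spots were well above background. miR-126-5p was detected on 4 of 16 arrays, and 8 of its 320 spots were well above background, all on 1 of its 2 probes. On no array did most spots of a 5p probe lie above background.

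The gene signal, which is the scanner software's background-subtracted sum over the probes of a miRNA, showed this on every array. In E17 controls the gene signal of miR-126-3p was 367, 470, 344 and 604 scanner units in replicates 1 to 4. In E17 mutants it was 439, 555, 494 and 563 units. These ranges overlapped, with the highest value in a control. In p4 controls the 3p gene signal was 1281, 2364, 1191 and 1132 units, and in p4 mutants 1070, 1500, 917 and 1112 units. Replicate 2 of the p4 controls stood above all other arrays, and the 2 genotypes again overlapped. The gene signal of miR-126-5p ran from 3.97 to 17.2 units over the 16 arrays.

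**Figure D1:**
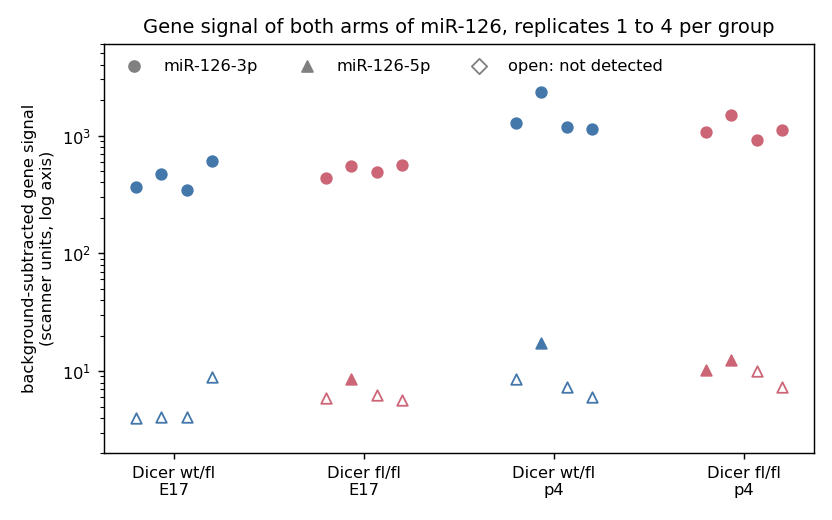
Background-subtracted gene signal in scanner units (log axis) of miR-126-3p (circles) and miR-126-5p (triangles) on each of the 16 arrays, by genotype and age; filled symbols are arrays on which the software detected the miRNA. The 3p arm lies between 344 and 2364 units and is detected on every array, whereas the 5p arm lies between 3.97 and 17.2 units and is detected on 4 arrays.

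miR-126-5p was detected in replicate 2 of the E17 mutants, replicate 2 of the p4 controls and replicates 1 and 2 of the p4 mutants. It counted as expressed only through the p4 mutants, where 2 of 4 arrays detected it. Its brighter probe, A_54_P1035, ran from 6.04 to 6.27 on the normalized log2 scale over all arrays, and its other probe, A_54_P4367, from 5.88 to 6.03. By comparison, the 1052 probes of the 334 miRNAs detected on 0 arrays had a median of 5.85, with 5th and 95th percentiles of 5.76 and 5.98. The brighter probe thus lay above that range on every array and the other probe mostly within it. By the spot flags given above, however, no group had most spots of a 5p probe well above background on any array, and no fold change is given for the 5p arm. In limma it was called in 0 of the 5 comparisons after quantile normalization. Over all settings tried it was called in 3 of 35 fits for mutants against controls at p4 and in 0 of 35 at E17. The p4 calls came with scaling to the 75th percentile, with scaling to the summed signal and with no log2 limit. Those 2 scalings called 225 and 228 of the 281 expressed miRNAs at p4 in either direction. For age, miR-126-5p was called in 3 of 35 fits in controls and 2 of 35 in mutants, each time lower at p4. In controls, the scalings behind these calls called 227 to 243 miRNAs. Since most spots of the 5p arm were not well above background, the balance between the arms was not compared. The levels of the 2 arms, which are read by different probes, are likewise not set against each other.

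In mutant nerves at p4, miR-126-3p made up a larger part of the miRNA signal than in control nerves, while its signal as scanned was not higher. Whether the larger part was particular to it depended on the scale. With scaling to the summed signal its p4 difference was 0.64, and the median of the 281 expressed miRNAs was 0.77. That scaling used spot signals without background subtraction, so it also raises probes near background where the sum is lower. On background-subtracted, quantile-normalized signal the p4 difference of miR-126-3p was 0.61, which was not called, and the median of the 281 was 0.26. Values are given for the brighter of its probes, A_54_P2286, as the log2 of the spot signal after quantile normalization, after which all arrays have 1 common distribution of signals. In p4 controls these were 9.52, 9.96, 9.16 and 9.36, with a mean of 9.50 ± 0.34 (SD, n = 4). In p4 mutants they were 10.22, 10.32, 9.69 and 10.16, with a mean of 10.10 ± 0.28 (SD, n = 4). Replicate 2 of the controls lay above replicate 3 of the mutants, and otherwise all mutants lay above all controls. Since whole nerves were extracted, a change in the number of endothelial cells and a change in miR-126 per cell cannot be told apart.

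The difference at p4 was 0.60 (SE 0.17, 95% confidence interval 0.23 to 0.97), which is 1.51-fold, and it passed the test of limma with an adjusted p of 0.0123. miRNAs called higher in p4 mutants made up 10.3% of the 281 expressed miRNAs, and 10.7% were called lower, so a call in itself was common. The direction rested on the normalization: without normalization between arrays the p4 difference was −0.32 (adjusted p = 0.272), and with scaling to the 20 positive-control probes it was −0.028 (adjusted p = 0.944). The control probes themselves differed by −0.30 between p4 mutants and controls (exact permutation p = 0.114). The second probe, A_54_P2285, gave 0.47 (SE 0.16, adjusted p = 0.0251), which is under the limit of 0.5 used for a call. Its normalized values were 8.94, 9.39, 8.57 and 8.85 in p4 controls and 9.54, 9.59, 9.08 and 9.43 in p4 mutants. Over the 16 arrays the 2 probes correlated with r = 0.943.

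As scanned, the brighter probe read 10.43, 11.21, 10.32 and 10.20 on the log2 scale in p4 controls and 10.14, 10.61, 9.88 and 10.22 in p4 mutants. The genotypes overlapped, and the mutants were at 79.8% of the control level. The difference of −0.32 did not exceed the spread between arrays (exact two-sided permutation p = 0.343, adjusted p = 0.457 over the 4 tests of both arms at both ages). Without normalization 31.7% of miRNAs were called lower in p4 mutants by limma, and miR-126-3p was not among them. Without replicate 2 of the p4 controls its difference was −0.10. Over all arrays, against its −0.32, the median difference of the 281 expressed miRNAs as scanned was −0.19. Relative to the median miRNA over all arrays, miR-126-3p was higher by 0.53 after quantile normalization and lower by 0.14 as scanned. Any scaling by a constant per array leaves the latter value as it is. The signal as scanned has no background subtraction, so dim miRNAs near background enter that median. After quantile normalization of background-subtracted or normexp-corrected signal, miR-126-3p was higher than the median by 0.35 and 0.51.

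**Figure D2:**
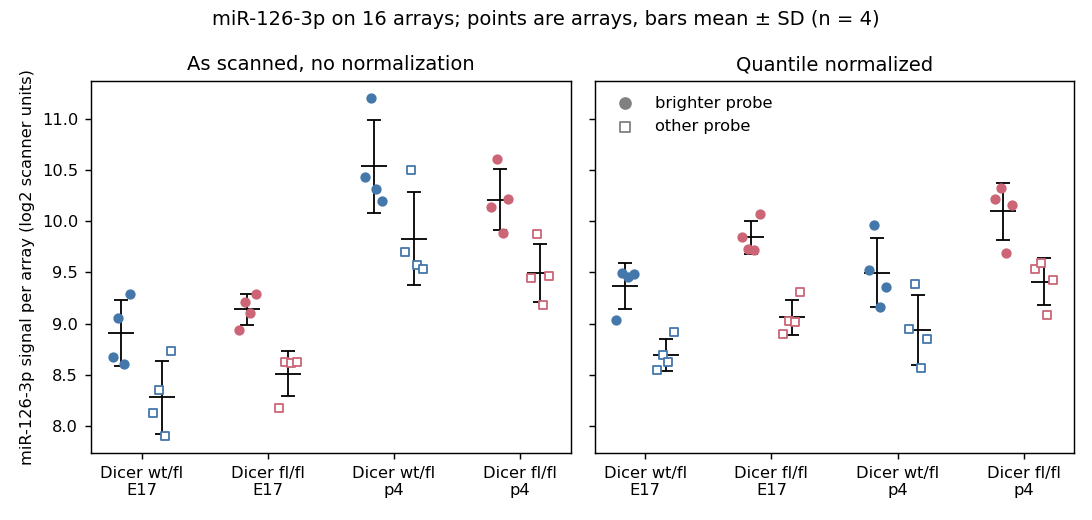
Signal of miR-126-3p per array on the log2 scale, as scanned (left) and after quantile normalization (right), for the brighter probe (filled circles) and the other probe (open squares), with mean and SD of 4 arrays per group. After normalization the mutant means lie above the control means at both ages (9.84 against 9.37 at E17, 10.10 against 9.50 at p4), whereas as scanned the p4 mutants have the lower mean (10.21 against 10.54).

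At E17 the normalized values of the brighter probe were 9.03, 9.50, 9.46 and 9.48 in controls and 9.85, 9.73, 9.72 and 10.07 in mutants. The means were 9.37 ± 0.22 and 9.84 ± 0.16 (SD, n = 4 each). The lowest mutant lay above the highest control, which held for 11% of the 281 miRNAs. The difference of 0.48 (SE 0.17, 95% confidence interval 0.11 to 0.84) did not pass the test of limma (adjusted p = 0.0932). Called higher in E17 mutants were 3.56% of miRNAs, and 2.49% were called lower. The second probe gave 0.37 (SE 0.16, adjusted p = 0.143).

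As scanned, the brighter probe at E17 read 8.68, 9.05, 8.60 and 9.29 in controls and 8.94, 9.22, 9.11 and 9.29 in mutants. The mutants lay within or slightly above the range of the controls, with a difference of 0.23 (exact two-sided permutation p = 0.257, adjusted p = 0.457). The median difference of all expressed miRNAs as scanned was 0.19. The mutant effect at p4 minus that at E17 was 0.12 for the brighter probe (SE 0.24, 95% confidence interval −0.40 to 0.65, adjusted p = 0.805), and this difference was −0.56 without normalization and −0.26 with scaling to positive controls (adjusted p = 0.129 and 1.00). A difference between the mutant effects at the 2 ages was therefore not shown; 2.85% of miRNAs were called with a higher and 6.76% with a lower effect at p4.

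**Figure D3:**
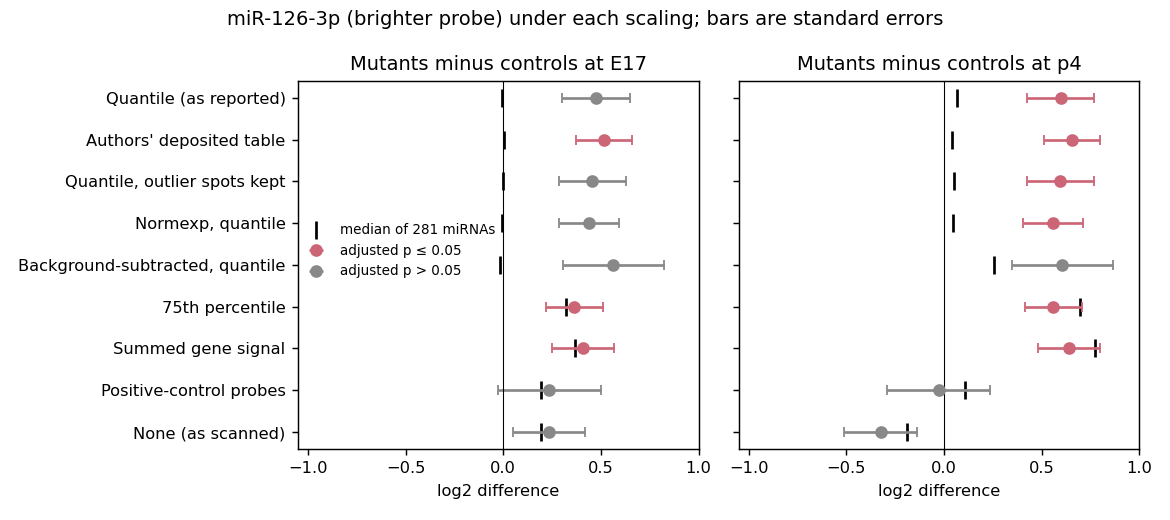
Mutants minus controls in the log2 signal of miR-126-3p at E17 (left) and p4 (right) under 9 treatments of the signal, with standard errors; red marks an adjusted p of at most 0.05 and the vertical tick the median of the 281 expressed miRNAs. At p4 the value is 0.60 after quantile normalization, −0.028 after scaling to positive controls and −0.32 as scanned, and under the scaling to summed signal the median of all miRNAs, at 0.77, lies above miR-126-3p at 0.64.

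Expressed as a share of the summed signal of all miRNAs, miR-126-3p made up 0.992, 1.53, 0.902 and 0.921% in p4 controls and 1.64, 1.79, 1.61 and 1.54% in p4 mutants. The mean share was 1.09 ± 0.30% in controls and 1.65 ± 0.11% in mutants (SD, n = 4 each). The groups did not overlap, although the highest control and the lowest mutant nearly met (exact two-sided permutation p = 0.0286, adjusted p = 0.0381 over 4 comparisons). At E17 the share was 0.723, 0.942, 0.943 and 1.00% in controls and 1.12, 1.09, 1.12 and 1.44% in mutants. These groups did not overlap either (exact permutation p = 0.0286, adjusted p = 0.0381). The comparisons of shares were added after the values were seen. How many other miRNAs did not overlap in their shares was not counted for any of these comparisons. With scaling to the summed signal, 228 of the 281 expressed miRNAs were called at p4 and 75 at E17, in either direction. The share rises when other miRNAs fall, and at p4 the summed signal was lower in mutants while that of miR-126-3p as scanned did not pass its test.

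**Figure D4:**
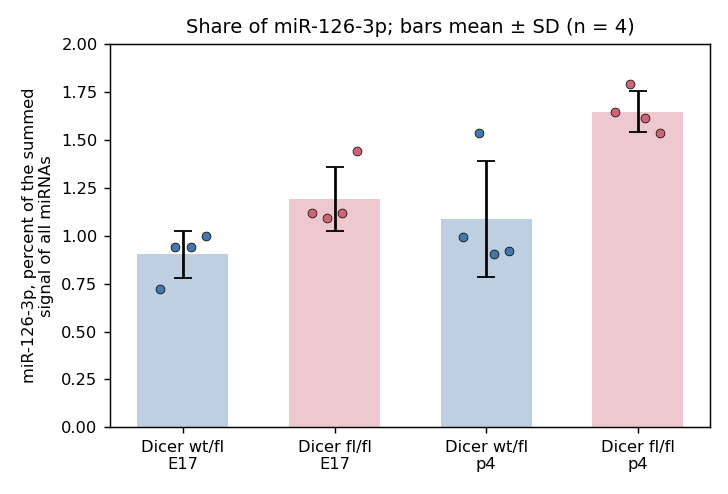
Share of miR-126-3p in the background-subtracted signal summed over miRNAs, in percent, for each array (points) with group mean (bars, from 0) and SD of 4 arrays. The p4 mutants lie between 1.54 and 1.79%, above 3 of the p4 controls by a wide margin and just above replicate 2 at 1.53%.

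From E17 to p4, the normalized signal of miR-126-3p did not pass the test in either genotype. The difference was 0.13 in controls (95% confidence interval −0.24 to 0.50, adjusted p = 0.597) and 0.25 in mutants (95% confidence interval −0.12 to 0.62, adjusted p = 0.325, but −0.079 with scaling to positive controls and 0.67, which was called, with scaling to the 75th percentile, adjusted p = 0.00200). Called higher at p4 were 8.19% of miRNAs in controls and 3.2% in mutants, and called lower were 12.1% and 7.47%. Leaving out replicate 2 of the p4 controls turned the control value to −0.021. As a share of the summed signal, miR-126-3p rose in mutants from 1.19 ± 0.17% to 1.65 ± 0.11% without overlap (SD, n = 4 each, exact permutation p = 0.0286, adjusted p = 0.0381), whereas the shares of controls, 0.902 ± 0.12% and 1.09 ± 0.30%, overlapped (exact permutation p = 0.457, adjusted p = 0.457). As scanned, every p4 array lay above every E17 array of the same genotype, as it did for 72.2% of miRNAs in controls and 17.1% in mutants. miR-126-3p was 3.10-fold higher in controls (log2 difference 1.63, adjusted p = 1.82e-11) and 2.11-fold higher in mutants (log2 difference 1.07, adjusted p = 8.53e-06). Called higher without normalization were 57.3% and 20.3% of all miRNAs, and the positive-control probes were themselves brighter by 1.45 and 1.15 on the slide that held the p4 arrays (exact permutation p = 0.0286 for each). The order of the normalized means was E17 controls, p4 controls, E17 mutants and p4 mutants. The neighbours of the same genotype, E17 and p4 controls as well as E17 and p4 mutants, did not pass the test. These neighbours differ in slide as well as in age. The arrays of p4 controls and E17 mutants overlapped.

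Other miRNAs with known roles in endothelial cells or in vessel growth, most of them not restricted to endothelium, were not called higher beside it. Of the 22 on this list, 20 were expressed. At p4, 0 were called higher and 6 were called lower, among them miR-92a and miR-20a of the miR-17-92 cluster and miR-23b, miR-27b and miR-24, which share a cluster. The remaining call was miR-181b. Of all 281 expressed miRNAs, 10.3% were called higher and 10.7% lower at p4. From these same samples, the study had itself listed miR-23b, miR-27b and miR-24 as decreased by Dicer depletion in Schwann cells. Their calls are therefore no independent result about endothelial miRNAs. The median difference of the 20 was −0.25, against 0.06 over all 281 miRNAs, with values from −1.45 to 0.28. At E17, 0 of the list were called higher and 1, miR-27b, lower, with a median of −0.06 against −0.00 over all miRNAs. At that age 3.56% of all miRNAs were called higher and 2.49% lower. The list's summed share was 10.8 to 13.1% in p4 controls and 7.70 to 8.79% in p4 mutants. miR-126-3p, which is not on the list, lay above every member in the normalized p4 comparison and above 16 of the 20 as scanned or with any constant scaling of the arrays. The counts of the list moved with the scaling. As scanned, 0 were called higher and 14 lower at p4, with a median of −0.93. Over all 281 miRNAs 31.7% were called lower as scanned, with a median of −0.19. With scaling to the summed signal 7 of the list were called higher and 5 lower, with a median of 0.033. Over all 281 miRNAs, that scaling called 228 in either direction at p4, with a median of 0.77.

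Markers of other cells of the nerve varied in their direction. Of the smooth muscle and pericyte miRNAs miR-143 and miR-145, the vessel wall's contractile cells, only miR-143 was expressed. In limma it differed by 0.076 between p4 mutants and controls (adjusted p = 0.635) and by 0.054 at E17 (adjusted p = 0.827). As scanned the p4 difference was −0.28. With scaling to the summed signal miR-143 was called higher at 0.68, where the median of the 281 expressed miRNAs was 0.77. All 4 miRNAs of the fibroblast list that the array carries (miR-199a-3p, miR-199a-5p, miR-199b* and miR-214) were called higher in mutants at p4, with a median of 1.12, and at E17, with a median of 0.55. Over all expressed miRNAs, 10.3% were called higher at p4 and 3.56% at E17. The fibroblast medians are over the brightest probes, of which 4 of 4 were called at p4 and 1 of 4, that of miR-199a-5p, at E17. The E17 calls of miR-199a-3p (0.65), miR-199b* (0.57) and miR-214 (0.52) came from a dimmer probe of each. As scanned, 0 of these 4 were called at either age, with medians of 0.33 and 0.35. Their summed share was 4.17 to 4.78% in p4 controls and 9.33 to 11.9% in p4 mutants.

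Of the 3 expressed leukocyte miRNAs, miR-223 of myeloid cells was called higher at p4 with a difference of 0.81 (adjusted p = 6.48e-05), and miR-142-3p was called higher at E17 with 0.54 (adjusted p = 0.00436). As scanned, 0 of the 3 were called at p4, with a median of 0.16, and 1 at E17. The summed share of the 5 leukocyte miRNAs on the array was 0.173 to 0.222% in p4 controls and 0.430 to 0.725% in p4 mutants, and miR-150 and miR-142-5p were not among those expressed. Of the 3 erythroid miRNAs, miR-451 was called higher at p4 with 1.35 (adjusted p = 0.0306) and miR-486 at E17 with 0.52 (adjusted p = 0.0296). As scanned, 0 of these 3 were called at p4, with a median of 0.054, and 1 at E17. The erythroid share was 0.167 to 1.13% in p4 controls and 0.542 to 1.95% in p4 mutants, and it was 1.74 to 5.44% in E17 controls and 5.38 to 12.2% in E17 mutants. The part of blood, vessels and connective tissue in the values of miR-126-3p was not tested. The skeletal muscle list had 0 of 4 called at either age, with a median of 0.70 at p4, although all 4 were called higher at p4 with scaling to the summed signal. In the neuron list, miR-9 was called lower at p4 with −0.68, and 0 of 3 were called at E17. With scaling to the summed signal miR-9 was not called at p4, and the other 2 were called higher. That scaling called 228 of the 281 expressed miRNAs at p4 in either direction, with a median of 0.77. After quantile normalization, 10.3% of the 281 were called higher and 10.7% lower at p4, and 3.56% and 2.49% at E17.

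**Figure D5:**
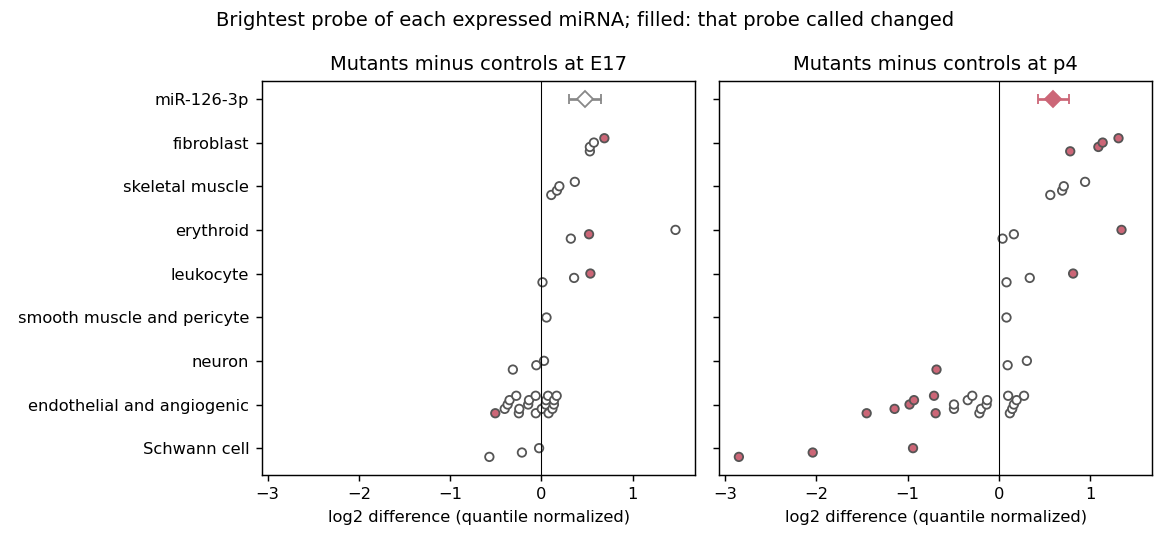
Mutants minus controls in normalized log2 signal at E17 (left) and p4 (right) for the brightest probe of miR-126-3p (diamond, with standard error) and of each expressed miRNA of 8 cell type lists (circles); filled symbols are probes called changed. At p4 miR-126-3p, at 0.60, lies above all members of the endothelial and angiogenic list, which run from −1.45 to 0.28, and below the 4 fibroblast miRNAs, which run from 0.78 to 1.31.

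The difference between 2 miRNAs within an array does not depend on a constant scaling of the array, so miR-126-3p was also set against the first expressed member of 5 lists. This test was added after the values were seen. Quantile normalization is not a constant scaling, so that independence holds only for the values as scanned. Against miR-338-3p of Schwann cells, miR-126-3p changed by 3.45 more at p4 and by 1.05 more at E17 on the normalized scale, and by 3.52 and 0.88 as scanned. Each of these had the smallest p that the exact permutation test allows, 0.0286, which came to 0.0714 after adjustment over the 10 tests and so did not pass. The study had picked miR-338-3p from these same samples for being lower in p4 mutants. The gap at p4 is therefore no independent result about miR-126-3p. Against miR-143, miR-126-3p changed by 0.52 more at p4 and 0.42 more at E17 on the normalized scale (adjusted p = 0.0714 for each, exact permutation test). As scanned the 2 values were −0.046 and −0.032. The gene signal of miR-143 and miR-145 together was 10.2 to 183 units over the arrays, against 344 to 2364 units for miR-126-3p. Against miR-223, miR-451 and miR-199a-3p the normalized differences at p4 were −0.22, −0.75 and −0.19, and their adjusted p-values were 0.238, 0.286 and 0.429 by the same exact test. As scanned they were −0.48, −0.96 and −0.48, with adjusted p-values of 0.0714, 0.238 and 0.0714, where those for miR-223 and miR-199a-3p had the smallest p that the exact permutation test allows. At E17 the 3 differences were 0.12, −0.99 and −0.055 on the normalized scale and −0.034, −0.98 and −0.13 as scanned.

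Across the 16 arrays, the normalized levels most like those of miR-126-3p were those of miR-450b-3p (Pearson r = 0.921), miR-411 (r = 0.905), miR-450a-5p (r = 0.898), miR-136* (r = 0.876) and miR-337-3p (r = 0.874), where the median over the 279 miRNAs compared was 0.068. In deviations from the group means, which leave out age and genotype, they were miR-450b-3p (r = 0.884), miR-199a-3p (r = 0.838), miR-22 (r = 0.803), miR-199b* (r = 0.788) and miR-495 (r = 0.768), against a median of 0.270. These values describe 16 arrays that share their slides, labeling and normalization, and they carry no test.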

How the data were processed

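Sciatic nerve RNA of 16 mice was measured on Agilent mouse miRNA arrays in 1 colour, with 100 ng of total RNA per array as the methods give it. The authors deposited scanner intensity values of every spot from Agilent Feature Extraction 10.5.1.1, with arrays not yet normalized to each other, and a table of quantile-normalized intensity values, which was used as an alternative. From the deposited intensity of the median spot signal, log2 values were taken, quantile normalized over the 13000 spots that are not controls, and averaged per probe without outlier spots. The genome build behind the array is not given in the sources used here. Expressed miRNAs were those detected on a share of 0.5 or more of a group's arrays (281 miRNAs, 681 probes).

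Groups were fitted on all 16 arrays with limma 3.58.1 in R 4.3.3, in place of the test of the methods. Benjamini-Hochberg adjustment ran over these 681 probes, and calls needed an adjusted p no higher than 0.05 with a log2 difference of 0.5 or more. A called miRNA had 1 or more called probes, with no probe called in the opposite direction. For single values the test was an exact permutation, two-sided, over 70 assignments. The steps were tested on simulated data. The miRNAs named are both arms, members of the cell type lists and the 5 miRNAs most like the 3p arm by each of 2 measures. The members, lists and tests were chosen with earlier results of these data known. Labels do not say more of the replicates than that they are separate samples, and the methods describe 4 littermate pairs per age. Same-numbered mutants and controls correlated in their deviations from the group means with r of −0.20, −0.52, −0.19 and 0.090 at E17 and 0.17, −0.28, 0.46 and 0.16 at p4, and with 1 of 8 best matched by its own number the numbers were not taken as pairs. Alternatives covered the scaling, background, filter, limits, test, probe, array weights, a replicate block and leaving out each array. The normexp alternative used the median in place of the mean spot signal.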

Additional observations from a re-analysis of the deposited data

Results flagged for a closer look

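In the normalized signal of the brighter probe of miR-126-3p, replicate 1 of the E17 controls, at 9.03, lay far below the other 3, which were within 9.46 to 9.50. In the second probe as scanned, replicate 1 of the E17 mutants, at 8.18, lay far below the other 3, which were within 8.62 to 8.63. Both were picked out by Dixon's criterion for a sample far from its group, which was applied to 32 sets of 4 arrays (both probes of each arm, as scanned and normalized, in each group), and chance flags about 1 in 20.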

How the results depend on the processing

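The call of miR-126-3p at p4 (0.60) held in direction and threshold under 13 of 19 alternatives. Several of these alternatives, such as other filters or a replicate block, keep the same estimate and change only its p, and dropping the log2 limit cannot undo a call. The p4 difference turned to −0.32 without normalization and to −0.028 with scaling to positive controls. It was not called with background-subtracted signal (0.61, adjusted p = 0.0782), with a log2 limit of 1 (0.60), with the adjusted p of the methods' test (0.60, adjusted p = 0.0808) or for the other probe (0.47). Leaving out each array gave 0.48 to 0.75, and without replicate 3 of the p4 controls the value was 0.48 (adjusted p = 0.0439), under the limit. At E17 the difference was called with the authors' deposited intensities (0.52, adjusted p = 0.0319) and otherwise not, with 0.36 to 0.52 on leaving out each array. From E17 to p4, controls gave 1.63 without normalization and −0.021 to 0.24 on leaving out each array, and mutants gave 1.07 without normalization, 0.67 with scaling to the 75th percentile and −0.079 with scaling to positive controls. The difference between the mutant effects turned to −0.56 without normalization and −0.26 with scaling to positive controls. Scaling to the 75th percentile or to the summed signal moved the median of all miRNAs at p4 to 0.70 and 0.77, above miR-126-3p at 0.56 and 0.64. These scalings called 225 and 228 miRNAs at p4, so the calls of miR-126-3p under them say little. The number of miRNAs called was 59 at p4 (14 to 228 over the alternatives) and 17 at E17 (0 to 75).

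With the replicate number within age as a block, the values were 0.60 at p4 (adjusted p = 0.00227) and 0.48 at E17 (adjusted p = 0.0229, under the log2 limit), and no call of miR-126-3p changed. The balance of the arms was not examined under other settings, since miR-126-5p was not well above background, which also limits any statement about that arm. The number of arrays and the normalization limit the precision.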
